A study of Mus musculus with 30 samples.

Results

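The genes described here, 10 of the 51752 in the count table, were chosen by name as members of the TREM2 signalling pathway and as mouse counterparts of genes linked to human Alzheimer disease risk in microglia. They were Trem2, Tyrobp, Syk, Plcg2, Abi3, Inpp5d, Treml2, Ms4a6d, Bin1 and Sorl1, and each symbol matched 1 row. RNA was measured in 30 libraries from 15 mice, in an experiment on loss of interleukin-34 (IL-34), a cytokine that binds the Csf1r receptor, on which many microglia depend. The genotype experiment compared 3 Il34 knockout (KO) with 4 heterozygous (Het) animals, so its control arm carried a mutant Il34 allele as well. The antibody experiment had 4 wild-type animals given anti-IL34 and 4 given anti-gp120, the control antibody. For every mouse there were a library of whole forebrain from a hemisphere and, from the other, a library of cells pulled down with CD11b magnetic beads, called isolates here. Both sexes were present in each arm, with 1 male of 3 in KO, 1 female of 4 with anti-IL34, and 2 of each sex in the control arms. Strain, age, antibody dosing and the design of the Il34 allele are not given in the sources used here.

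TREM2 is a receptor on microglia and other myeloid cells that binds lipids and lipoproteins. It has no signalling tail of its own and pairs with TYROBP (also called DAP12), whose tyrosine motif recruits the kinase SYK. SYK in turn acts on phospholipase C gamma 2, encoded by Plcg2, while the lipid phosphatase SHIP1, encoded by Inpp5d, limits phosphoinositide signals in the same cells. In the brain this pathway is known for phagocytosis and for the response of microglia to amyloid and to lost myelin. On GRCm38 (GENCODE M21) the members other than the neighbours Trem2 and Treml2 lie on separate chromosomes as protein-coding genes, with Tyrobp at chr7:30413760-30417585, Syk at chr13:52583173-52648792, Plcg2 at chr8:117498291-117635142, Abi3 at chr11:95830074-95842476, Inpp5d at chr1:87620312-87720507, Ms4a6d at chr19:11586604-11604849 and Sorl1 at chr9:41964720-42124297.

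Total counts ran from 15.1 M to 75.2 M per library, and the low genes Treml2 and Ms4a6d rested on 5 to 60 and 6 to 99 counts in forebrain libraries. Levels are given as CPM, read counts per M of library size, scaled with TMM over the 15 libraries of a tissue. Il34 ran from 6.78 to 8.73 CPM in KO forebrain and from 19.2 to 23.5 CPM in Het forebrain, so those arms stood apart as labelled. Its arms overlapped in the isolates, at 5.28 to 6.75 CPM in KO and 4.82 to 9.97 CPM in Het. Of 17 fixed markers of microglia and brain macrophages 16 were counted at usable levels. The exception was Itgam, the gene of CD11b itself, with 0 counts in all forebrain libraries and at most 3 in the isolates, and its span overlaps that of Gm49368 on the same strand. The summed CPM of this list was 14000 to 24800 in Het isolates and 296 to 333 in Het forebrain. The isolates were not pure: the summed CPM of 7 astrocyte markers in them was 2880 to 10300 with Het and 12000 to 14000 with KO, and that of 10 neuron markers 157 to 559 and 552 to 823. In the antibody experiment the astrocyte sum was 4330 to 16400 with anti-gp120 and 9390 to 16900 with anti-IL34, and the neuron sum 259 to 784 and 596 to 1020. None of these astrocyte and neuron markers was at 0 throughout an arm. The 6 choroid plexus markers summed to 3.84 to 7.01 CPM in anti-gp120 isolates but up to 2130 CPM in anti-IL34 and 3780 CPM in Het isolates. The part of this admixture in the results on isolates below was not tested.

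Upstream sequences are shown, as a description, for the members that RefSeq's promoter table (GRCm38.p6) holds. The table matched 5 of the 10 members, Trem2, Syk, Plcg2, Inpp5d and Sorl1, with 7 start sites. The 250 bases before the start are printed on the gene's strand, and capitals mark the letters GAGGAA or GGAAGT, or their reverse complements TTCCTC and ACTTCC. The pair of motifs overlaps in GGAA. They belong to the sequence bound by PU.1, a transcription factor of myeloid cells.
Trem2, chr17:48346151-48346400, plus strand: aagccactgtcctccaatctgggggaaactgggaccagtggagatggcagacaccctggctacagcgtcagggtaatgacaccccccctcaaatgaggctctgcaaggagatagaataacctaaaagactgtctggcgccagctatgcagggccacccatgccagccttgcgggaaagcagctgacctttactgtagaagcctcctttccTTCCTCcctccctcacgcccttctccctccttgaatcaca
Inpp5d, chr1:87620062-87620311, plus strand: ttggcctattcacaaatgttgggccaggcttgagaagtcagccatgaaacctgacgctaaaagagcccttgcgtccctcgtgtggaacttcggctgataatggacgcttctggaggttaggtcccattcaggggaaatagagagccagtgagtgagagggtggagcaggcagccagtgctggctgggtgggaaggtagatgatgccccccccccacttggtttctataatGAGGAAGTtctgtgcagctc
Syk (downstream start), chr13:52596632-52596881, plus strand: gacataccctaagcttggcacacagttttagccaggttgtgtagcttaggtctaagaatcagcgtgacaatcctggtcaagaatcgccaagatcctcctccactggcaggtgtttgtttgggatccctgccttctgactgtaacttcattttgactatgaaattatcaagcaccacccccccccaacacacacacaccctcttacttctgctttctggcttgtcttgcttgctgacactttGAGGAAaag
Plcg2, chr8:117498025-117498274, plus strand: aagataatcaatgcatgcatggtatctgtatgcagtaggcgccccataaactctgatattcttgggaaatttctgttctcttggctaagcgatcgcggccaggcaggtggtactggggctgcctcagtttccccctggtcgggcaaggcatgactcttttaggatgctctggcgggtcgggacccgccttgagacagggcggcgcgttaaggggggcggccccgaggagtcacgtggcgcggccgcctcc
Sorl1 (upstream start), chr9:42124298-42124547, minus strand: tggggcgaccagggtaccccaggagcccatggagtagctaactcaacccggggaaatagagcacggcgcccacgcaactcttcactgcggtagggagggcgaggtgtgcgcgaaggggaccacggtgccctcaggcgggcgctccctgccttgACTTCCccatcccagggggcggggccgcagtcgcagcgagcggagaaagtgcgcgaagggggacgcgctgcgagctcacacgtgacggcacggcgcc
Inpp5d held both motifs as 1 run that began 20 bases before the start. Trem2 held GAGGAA on the other strand, read from 40 bases before the start, and the downstream start of Syk held it 9 bases before. Plcg2, the upstream start of Syk and the downstream start of Sorl1 held neither motif within 250 bases, and the windows of the last pair are not printed. Sorl1 held GGAAGT on the other strand, 97 bases before its upstream start. For Plcg2 and the downstream start of Sorl1 the bases just after the start matched no GENCODE M21 transcript of the gene, so these starts are less certain. Of all 32851 promoters listed there, 23.3% hold GAGGAA and 19.7% GGAAGT in a window of the same length on either strand. These matches describe letters in a window and say nothing of binding. Their part in the changes given below was not tested.

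In control animals 8 of the 10 genes were far higher in the isolates than in forebrain, Bin1 was higher by a smaller step, and Sorl1 was lower. By edgeR (adjusted p under 0.05) 9 members were higher in isolates and 1 lower, where 40.5% of all 19952 genes tested were higher and 43% lower. Tyrobp, the adaptor, was higher by 5.59 on the log2 scale (SE 0.183, edgeR-adjusted p 1.31e-13). Trem2 was higher by 5.32 (SE 0.175), Inpp5d by 5.58, Abi3 by 5.57, Plcg2 by 5.50, Ms4a6d by 5.43, Syk by 5.39 and Treml2 by 4.74 on the log2 scale. The median of the microglia and brain macrophage markers was 5.72. Bin1, a membrane-bending protein that neurons and oligodendrocytes also make, was higher by 1.47 (SE 0.102, edgeR-adjusted p 9.71e-10). Sorl1, a sorting receptor that carries the amyloid precursor protein between compartments, was lower there (log2 fold change -1.45, SE 0.115, edgeR-adjusted p 5.32e-09). With the animal as a replicate block all 10 calls stood.

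Levels can be compared between genes only per length. The deposited length per gene equals the whole gene span, introns included, for 51183 of 51498 matched genes, so CPM was divided by the exon length of GENCODE M21 instead. In Het isolates Tyrobp stood highest, at 226 ± 36.1 CPM per kb of exon (SD, n = 4), and its 4 animals did not overlap those of the next gene. Bin1 (113 ± 14.9) and Inpp5d (91.7 ± 18.5 CPM per kb, SD, n = 4) followed and overlapped each other. Plcg2 (47.2 ± 9.43), Abi3 (31.4 ± 4.90), Trem2 (31.3 ± 6.07), Syk (24.4 ± 6.33) and Ms4a6d (17.8 ± 3.70 CPM per kb) formed a run in which each neighbour overlapped the next. Sorl1 (9.56 ± 2.10) and Treml2 (2.52 ± 0.736 CPM per kb, SD, n = 4) were lowest, each apart from its neighbours. In Het forebrain the order was different, with Bin1 (48.2 ± 1.41) and Sorl1 (31.4 ± 3.51) far above Tyrobp (4.06 ± 0.912 CPM per kb) and the rest. Whether reads in introns or strand were used in counting is not given in the sources used here. If reads in introns were counted, division by exon length overstates genes with long introns, and the order between genes above is uncertain. Plcg2, for example, has 4298 exon bases in a span of 136852. Abi3 overlaps Zfp652, Phospho1 and Gngt2 on the other strand, Plcg2 overlaps Gm27361, Bin1 A830052D11Rik and Sorl1 Gm16214, so if strand was not used their counts are uncertain where they overlap.

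**Figure D1:**
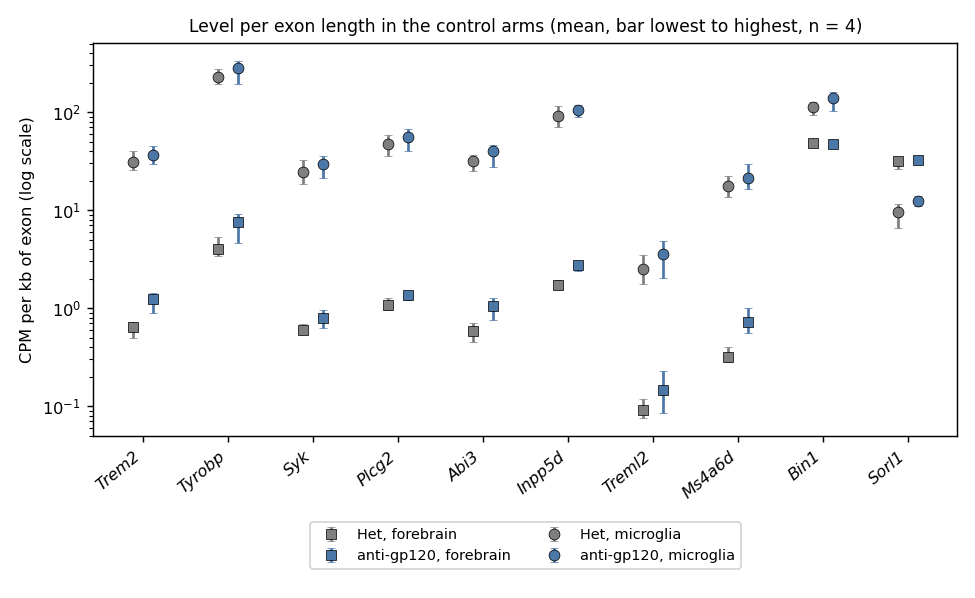
Level of each gene per kb of exon (CPM per kb, log scale) in the control arms, with the mean as a marker and a bar from the lowest to the highest of 4 animals; grey is Het, blue anti-gp120, squares forebrain and circles isolates. Bin1 and Sorl1 are the only members above 10 in forebrain, and Sorl1 is the only member lower in the isolates than in forebrain. The order between genes is uncertain if reads in introns were counted.

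In forebrain Trem2, its adaptor Tyrobp, the kinase Syk, Abi3 and Inpp5d fell in KO animals. Of the 10 members 5 were lower and 0 higher (edgeR, adjusted p under 0.05), where 0.615% of all 19343 genes tested were lower and 0.00517% higher, and their median log2 fold change was -0.62 against 0 over all genes. Trem2 stood at 3.43, 3.6, 2.48 and 3.32 CPM in Het animals 1, 20, 21 and 23, and at 1.6, 1.5 and 1.13 CPM in KO animals 3, 6 and 24. Every KO library lay below every Het library, at 44.4% of Het (log2 fold change -1.17, SE 0.181, edgeR-adjusted p 0.00855). Tyrobp fell from 2.71 ± 0.608 to 0.992 ± 0.378 CPM (SD, n = 4 and n = 3), a log2 fold change of -1.40 (SE 0.266, edgeR-adjusted p 0.0329). Inpp5d was at 14.8, 12.7, 12.3 and 13.2 CPM in the Het animals in the same order and at 7.61, 7.67 and 6.89 CPM in the KO animals. It fell to 56.6% of Het (log2 fold change -0.82, SE 0.088, edgeR-adjusted p 0.000387), and the spread within each arm was small.

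Abi3, a partner of the actin-regulating WAVE complex, fell by 1.14 on the log2 scale (SE 0.210, edgeR-adjusted p 0.0268). Syk, the kinase, ran from 5.24 to 6.49 CPM in Het and 3.16 to 4.26 CPM in KO, a log2 fold change of -0.58 (SE 0.116, edgeR-adjusted p 0.0473). The Syk call was lost without a sex term (edgeR-adjusted p 0.122) and with all 15 forebrain libraries in the fit (0.264). Plcg2, at 4.10 to 5.40 CPM in Het and 2.93 to 3.20 CPM in KO, did not pass (log2 fold change -0.59, SE 0.133, edgeR-adjusted p 0.0954), though its arms did not overlap. It passed with DESeq2 (adjusted p 0.0482) and without a count filter (0.00187 by edgeR). Ms4a6d, of the MS4A family of membrane-spanning proteins, also had arms that did not overlap without passing (log2 fold change -0.66, SE 0.301, edgeR-adjusted p 0.668). In all, the KO arm lay wholly below Het for 7 members, and for 5.39% of all genes. Treml2 (0.13, SE 0.334), Bin1 (-0.04, SE 0.049) and Sorl1 (0.10 on the log2 scale, SE 0.082) overlapped between the arms. Bin1 was 181 to 205 CPM in KO and 191 to 204 CPM in Het forebrain. The oligodendrocyte markers, of which 6 of 10 were lower in KO forebrain, had a median of -0.31, and their summed CPM was 4640 to 5000 against 5690 to 6760 in Het. Inpp5d passed in all 7 fits that left out 1 animal, and Trem2 in 6, not without KO animal 6 (edgeR-adjusted p 0.0641). Abi3 and Syk each passed in only 1 of the 7, those without Het animal 21 and without Het animal 23, and Tyrobp in 4, with edgeR-adjusted p 0.356 without KO animal 3. The member count was 4 without Het animal 21, 3 without Het animal 1, 20 or 23, and 2 when any 1 of the 3 KO animals was left out. Over the whole table these fits called 55 to 117 genes, against 120 in the main fit.

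In bulk forebrain fewer microglia and less RNA per microglia cannot be told apart. The microglia and brain macrophage markers fell there by a median of -1.31 on the log2 scale in KO, with 14 of 16 lower. Trem2, Tyrobp and Abi3 lay close to that median and Syk, Plcg2 and Inpp5d above it.

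With the antibody Trem2, Inpp5d, Abi3 and Syk fell in forebrain as well. Of the 10 members 4 were lower and 0 higher (edgeR, adjusted p under 0.05), where 0.525% of all 17143 genes were lower and 0.192% higher, and the median of the members was -0.74 on the log2 scale. Trem2 was at 6.15, 7.03, 7.05 and 4.38 CPM in anti-gp120 animals 1, 7, 8 and 15, and at 3.15, 2.89, 1.90 and 3.16 CPM in anti-IL34 animals 2, 10, 11 and 24. The lowest control, animal 15, was above the highest treated animal, and Trem2 fell to 42.6% of control (log2 fold change -1.23, SE 0.177, edgeR-adjusted p 0.00843). Inpp5d fell from 20.9 ± 2.23 to 11.2 ± 0.800 CPM (SD, n = 4 each), by 0.90 on the log2 scale (SE 0.105, edgeR-adjusted p 0.00265). Abi3 (-1.10, SE 0.211, edgeR-adjusted p 0.0414) and Syk (-0.86, SE 0.170, edgeR-adjusted p 0.0482) fell as well. Tyrobp (-1.06, SE 0.215, edgeR-adjusted p 0.0565) and Plcg2 (-0.61 on the log2 scale, SE 0.133, edgeR-adjusted p 0.0839) did not pass. Both passed with DESeq2 (adjusted p 0.00111 and 0.0199), without a count filter (5.07e-07 and 0.0136 by edgeR) and with all 15 forebrain libraries in the fit (0.0450 and 0.0171 by edgeR), and Abi3 did not pass without a sex term (0.0514 by edgeR).

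For 5 members (Trem2, Syk, Plcg2, Abi3 and Inpp5d) the anti-IL34 arm lay wholly below the control arm in forebrain, as 2.32% of all genes did. Tyrobp overlapped between the arms, at 3.12 to 6.14 CPM with anti-gp120 and 2.06 to 3.48 CPM with anti-IL34. Treml2 (0.14), Ms4a6d (-0.40), Bin1 (-0.07) and Sorl1 (0.09 on the log2 scale) overlapped as well. The marker list of microglia had a median of -1.27, with 13 of 16 lower. Inpp5d passed in each of the 8 fits that dropped 1 animal. Trem2 passed in 6 of 8, failing without anti-IL34 animal 11 (edgeR-adjusted p 0.102) and without anti-gp120 animal 7. Syk and Abi3 each passed in 2 of 8, those without anti-gp120 animal 15 and without anti-IL34 animal 2. Leaving out anti-IL34 animal 11 or anti-gp120 animal 7 left 1 member called. Leaving out anti-gp120 animals 1 or 8, or anti-IL34 animals 10 or 24, left 2. Over the whole table these fits called 25 to 112 genes, against 123 in the main fit. Tested against each other in forebrain, deletion and antibody differed for 0 of 10 members by edgeR, for 0 by DESeq2 and for 0 with unadjusted edgeR p under 0.05, with estimates from -0.34 (Tyrobp, SE 0.372) to 0.28 on the log2 scale (Syk, SE 0.215). Over all genes 0.0101% were called and 3.07% had an unadjusted p under 0.05.

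**Figure D2:**
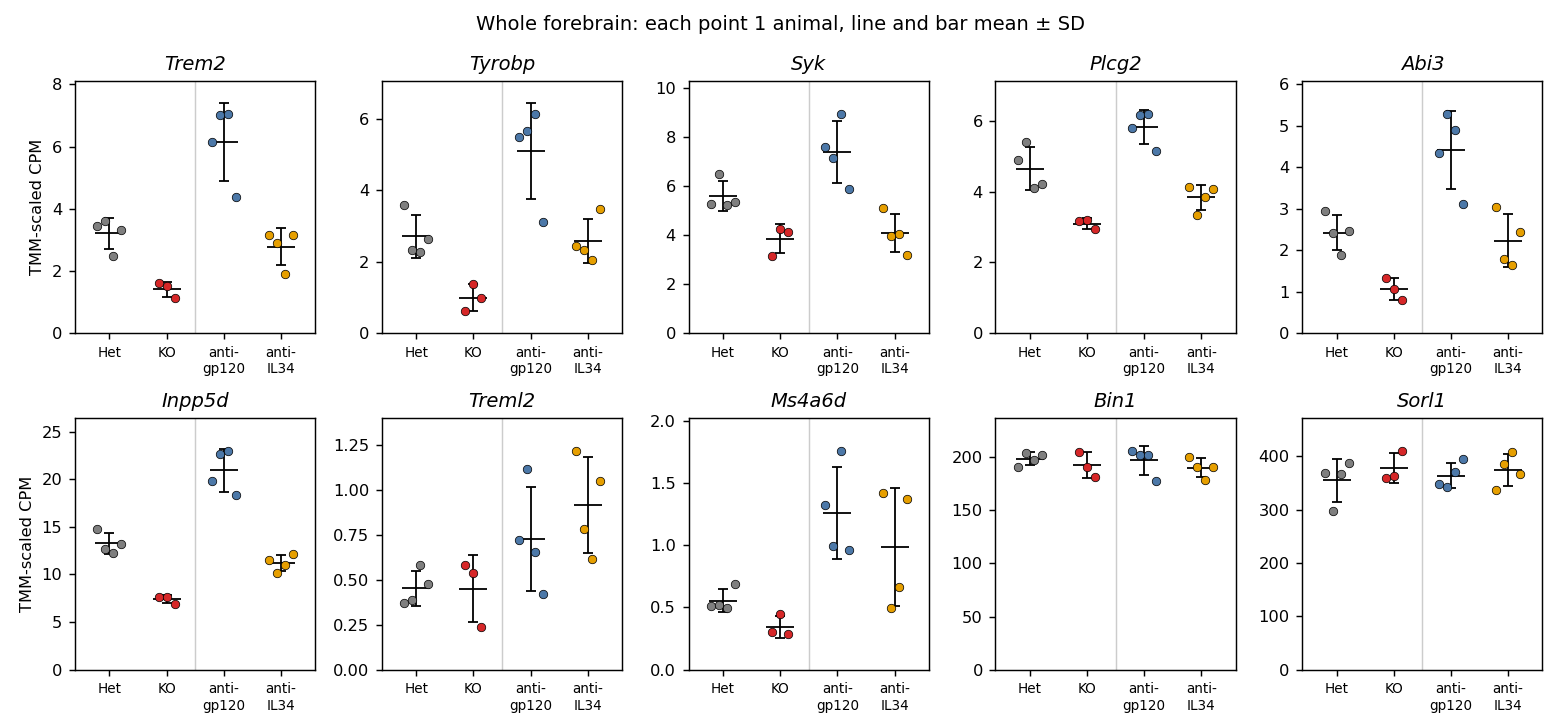
TMM-scaled CPM of each member in whole forebrain (linear axes from 0), 1 point per animal, with the mean as a line and the SD as a bar, for Het, KO, anti-gp120 and anti-IL34. Trem2 and Inpp5d are lower in both IL-34-loss arms than in every animal of their own control arm, while Bin1 and Sorl1 overlap between arms.

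In the isolates of KO animals nearly the whole set was lower, Bin1 and Treml2 now included. Of the 10 members 8 were lower and 0 higher (edgeR, adjusted p under 0.05), where 5.22% of all 18185 genes were lower and 0.143% higher, and the median log2 fold change of the members was -1.34 against 0.02 over all genes. Trem2 was at 128, 147, 198 and 147 CPM in Het animals 1, 20, 21 and 23 and at 49.7, 55.0 and 52.9 CPM in KO animals 3, 6 and 24. It fell to 33.9% of Het (log2 fold change -1.56, SE 0.173, edgeR-adjusted p 0.0136), and the KO animals were close together. Tyrobp fell by 1.26 (SE 0.154, edgeR-adjusted p 0.0138) and Syk by 1.31 on the log2 scale (SE 0.219, edgeR-adjusted p 0.0245). Plcg2 (-1.37, SE 0.187), Inpp5d (-1.52, SE 0.210) and Abi3 (-1.73 on the log2 scale, SE 0.161) were lower too, with edgeR-adjusted p 0.0160, 0.0161 and 0.0136.

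Treml2, a TREM-like receptor whose gene lies beside Trem2 on chromosome 17 (48299498 to 48312533, Trem2 at 48346401 to 48354147, GRCm38), was at 8.68, 12.4, 17.3 and 11.2 CPM in Het and 3.6, 4.35 and 3.77 CPM in KO. It fell to 31.4% of Het (log2 fold change -1.67, SE 0.258, edgeR-adjusted p 0.0205), with no overlap. Bin1 was at 385, 457, 529 and 492 CPM in Het and 187, 216 and 225 CPM in KO isolates, again with no overlap (log2 fold change -1.19, SE 0.170, edgeR-adjusted p 0.0169). Ms4a6d went from 30.8 ± 6.41 to 16.6 ± 4.82 CPM (SD, n = 4 and n = 3) and did not pass (log2 fold change -0.89, SE 0.244, edgeR-adjusted p 0.0857), but passed with DESeq2 (0.0170), and by edgeR without a count filter (0.0409), without a sex term (0.0437) and with all 15 isolates in the fit (0.0350). Sorl1 ran the other way, at 131, 112, 74.7 and 115 CPM in Het and 154, 177 and 154 CPM in KO, without passing (0.55, SE 0.204, edgeR-adjusted p 0.132). It passed with all 15 isolates in the fit (edgeR-adjusted p 0.0394) and without Het animal 1 (0.0221).

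The KO arm of isolates lay wholly below Het for 9 members and above it for Sorl1, where 19.1% of all genes lay wholly below and 20.7% above. That such shares of all genes separated the arms limits what the separation of single genes shows here. The microglia and brain macrophage markers had a median of -1.54 with 15 of 16 lower, while neuron, astrocyte and oligodendrocyte markers had medians of 0.97, 0.94 and 0.83 on the log2 scale with 0 of 27 passing. The calls depended on single animals. The member count was 0 in 5 of 7 fits with 1 animal left out, those without Het animal 20 or 23 or KO animal 3, 6 or 24, in which no gene of the whole table passed. It was 8 without Het animal 21 and 10 without Het animal 1, in fits that called 3115 and 5756 genes, against 976 in the main fit. The fold changes moved little, with Trem2 between -1.62 and -1.44 and Treml2 between -1.77 and -1.47 on the log2 scale over the 7 fits. The highest edgeR-adjusted p of Trem2 was 0.168, without KO animal 3.

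With the antibody 8 of the 10 estimates in isolates were below 0 and none passed, those of Treml2 and Sorl1 being above 0. Of the 10 members 0 were called by edgeR, where 0.603% of all 17570 genes were lower and 0.0228% higher, and 8 had an unadjusted p under 0.05, as 25.9% of all genes did. The members' median was -0.77 on the log2 scale against 0.06 over all genes. DESeq2 called 7, and edgeR called 8 without anti-gp120 animal 15 and 4 without anti-IL34 animal 11. Over the whole table these fits called 2015, 6905 and 514 genes, against 110 in the main fit. Trem2 was at 224, 175, 184 and 145 CPM in anti-gp120 animals 1, 7, 8 and 15 and at 98.8, 86.4, 116 and 97.2 CPM in anti-IL34 animals 2, 10, 11 and 24. The arms did not overlap, at 55.4% of control (log2 fold change -0.85, SE 0.155, edgeR-adjusted p 0.0557). Inpp5d (-0.89, SE 0.173, edgeR-adjusted p 0.0566) and Bin1 (-0.95 on the log2 scale, SE 0.191, edgeR-adjusted p 0.0603) did not pass either. Abi3 had an estimate of -0.97, Syk of -0.82, Tyrobp of -0.73, Plcg2 of -0.71 and Ms4a6d of -0.39 on the log2 scale.

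Treml2 was at 24.0, 16.8, 19.3 and 9.91 CPM in the anti-gp120 animals 1, 7, 8 and 15, and at 30.1, 13.7, 21.3 and 22.4 CPM in the anti-IL34 animals 2, 10, 11 and 24. These overlap broadly (log2 fold change 0.29, SE 0.302, edgeR-adjusted p 0.523). Sorl1 was at 125 to 156 CPM in anti-gp120 and 160 to 199 CPM in anti-IL34 isolates, not overlapping but not passing (0.38, SE 0.133, edgeR-adjusted p 0.155). The 12 neutrophil and monocyte markers, cells in which Treml2 is also known, summed to 65.8 to 377 CPM in anti-gp120 and 241 to 549 CPM in anti-IL34 isolates, and to 49 to 67.5 in Het and 50.7 to 106 CPM in KO isolates. Their part in the Treml2 values was not tested. In this experiment 5 members had an anti-IL34 arm wholly below control, as 10.1% of all genes did, and 1 wholly above, as 4.88% did. Microglia markers had a median of -0.98 with 6 of 16 lower, and neuron and astrocyte markers medians of 0.95 and 0.68.

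**Figure D3:**
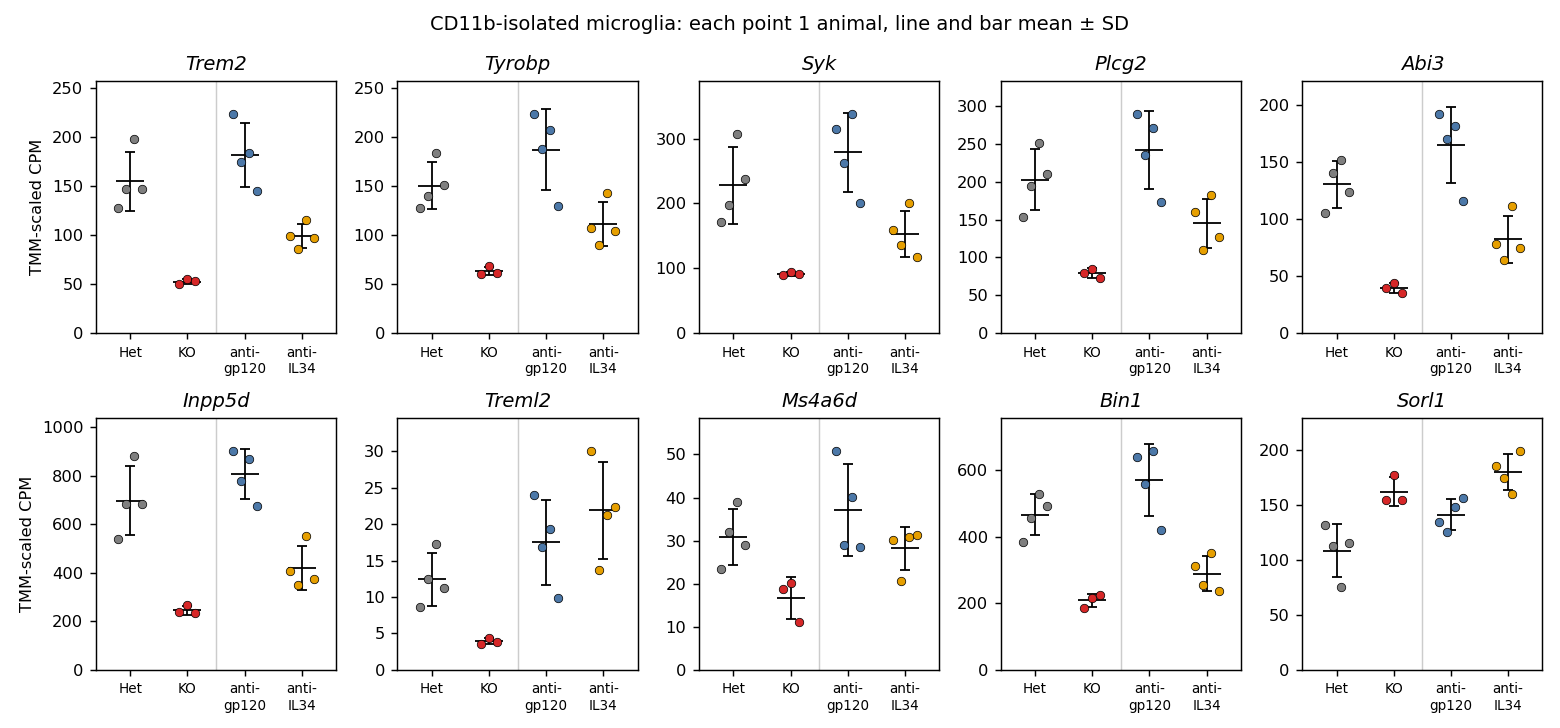
TMM-scaled CPM of each member in CD11b isolates (linear axes from 0), 1 point per animal, with the mean as a line and the SD as a bar, for Het, KO, anti-gp120 and anti-IL34. KO animals lie below all Het animals for 9 members and above them for Sorl1, and Treml2 is lower in KO but overlaps between the antibody arms.

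The difference between deletion and antibody was tested directly in the isolates. edgeR called 0 of 10 members (0% of all 18732 genes), while 5 had an unadjusted p under 0.05, as 3.95% of all genes did. The largest estimate among the members was that of Treml2, -1.93 on the log2 scale (SE 0.431, unadjusted p 0.000597 and adjusted p 0.654 by edgeR). DESeq2 called Treml2 alone of the 10 (-1.93, SE 0.453, adjusted DESeq2 p 0.0245), while without a count filter edgeR gave it an adjusted p of 0.108. Trem2 had an estimate of -0.68 (SE 0.232), Abi3 of -0.74 (SE 0.273) and Bin1 of -0.22 on the log2 scale (SE 0.251). Deletion and antibody were tested in separate animals, each with its own controls.

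**Figure D4:**
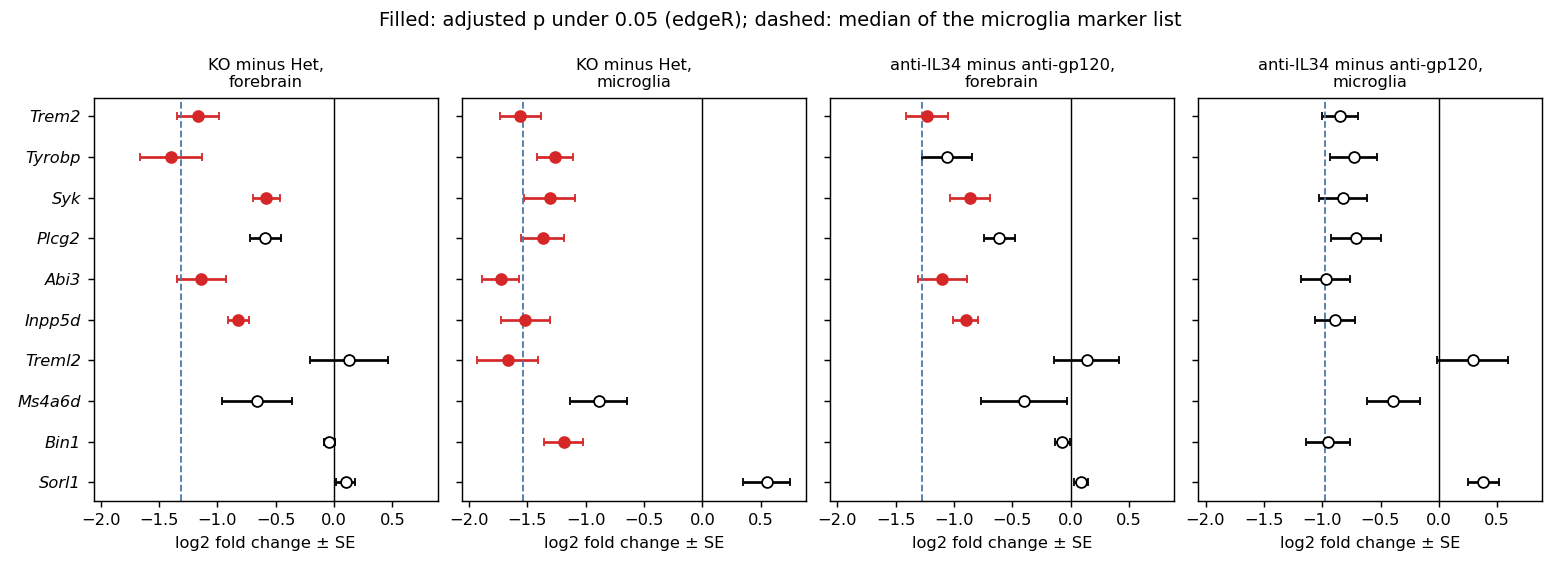
Log2 fold change with its SE for each member in the 4 comparisons of arms, filled where the edgeR-adjusted p is under 0.05, with a dashed line at the median of the microglia and brain macrophage markers. Bin1 sits near 0 in forebrain and near -1 in the isolates, and Treml2 is lower only in the KO comparison of isolates.

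Whether the effect of deletion differed between isolates and forebrain was tested as an interaction, and only Bin1 was called. Its difference was -1.12 on the log2 scale (SE 0.168, edgeR-adjusted p 0.0110), where 2.98% of all 20107 genes were called. With the animal as a replicate block the estimate was -1.11 and no longer passed (SE 0.180, edgeR-adjusted p 0.0912), as no gene of the table did, and it failed in 5 of 7 fits with 1 animal left out, those without Het animal 20 or 23 or KO animal 3, 6 or 24. Treml2 had the largest estimate, -1.76 (SE 0.432), and an edgeR-adjusted p of 0.0523, and was called by DESeq2 (adjusted p 0.00212), with RLE factors (0.0491 by edgeR) and without a count filter (0.0199 by edgeR), but not with the animal as a replicate block (0.101 by edgeR). DESeq2 also called Syk (-0.74, adjusted p 0.0478), Plcg2 (-0.79, 0.0238) and Inpp5d (-0.70, 0.0264). Trem2 (-0.36, SE 0.258) and Tyrobp (0.19 on the log2 scale, SE 0.339) did not pass, with edgeR-adjusted p 0.354 and 0.732. For the antibody 0 of 10 members were called by edgeR, against 0.0924% of all genes. Bin1 alone had an unadjusted p under 0.05, as 21.1% of all genes did (-0.89, SE 0.218, edgeR-adjusted p 0.112). Bin1 alone was called by DESeq2 (adjusted p 0.00323), but did not pass with the animal as a replicate block (-0.89, SE 0.198, edgeR-adjusted p 0.206). The other estimates ran from -0.11 (Plcg2) to 0.37 on the log2 scale (Trem2).

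To set the members beside the loss of microglial RNA as a whole, each was expressed as a percent of the summed CPM of the 17 microglia and brain macrophage markers of its library. This ratio was chosen after the data were seen, and the markers are themselves genes that fell. Trem2 made up 0.798 to 0.922% of that sum in Het isolates and 0.846 to 0.887% in KO isolates. With anti-gp120 it was 0.811 to 0.876% and with anti-IL34 0.850 to 0.994%, so these arms overlapped as well. Inpp5d (3.56 to 4.28% and 3.88 to 4.21%) and Abi3 (0.613 to 0.876% and 0.593 to 0.707%) also overlapped between Het and KO isolates. Treml2 was at 0.0622 to 0.0777% in Het and 0.0631 to 0.0670% in KO, but at 0.0557 to 0.0924% with anti-gp120 and 0.156 to 0.284% with anti-IL34, without overlap. Ms4a6d was at 0.144 to 0.196% with anti-gp120 and 0.225 to 0.315% with anti-IL34. In KO isolates 4 members (Tyrobp, Syk, Bin1 and Sorl1) and in anti-IL34 isolates 5 (Tyrobp, Plcg2, Treml2, Ms4a6d and Sorl1) lay wholly above their control arm on this ratio. A share of 88.8% and 72.9% of all genes did so in the respective comparison, the divisor itself being lower. On this ratio 0 members lay wholly below their control arm in isolates, and 0.104% and 0.273% of all genes did. In forebrain, which the plot of this ratio leaves out, Trem2 again overlapped, at 0.811 to 1.22% in Het and 0.858 to 1.09% in KO. Inpp5d was at 4.02 to 4.44% in Het and 5.20 to 5.22% in KO forebrain, and Plcg2 at 1.33 to 1.82% and 2.16 to 2.22%, without overlap. In KO forebrain 4 members (Plcg2, Inpp5d, Bin1 and Sorl1) lay wholly above control and 0 below, where 90.6% of all genes lay above and 0.114% below. With anti-IL34 it was 4 (Plcg2, Treml2, Bin1 and Sorl1) and 0, where 90.5% and 0.0642% of all genes did so.

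**Figure D5:**
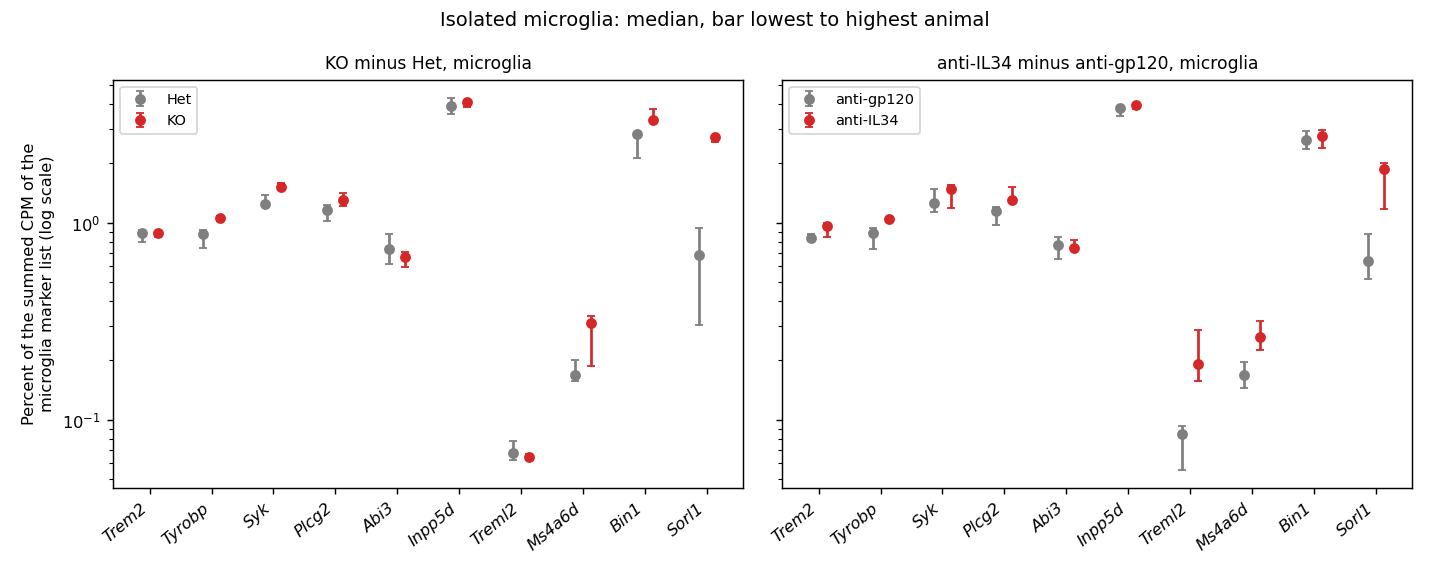
Each member in isolates as a percent of the summed CPM of 17 microglia and brain macrophage markers (log scale), with the median as a point and a bar from the lowest to the highest animal; grey is the control arm and red the IL-34-loss arm. Trem2, Abi3 and Inpp5d overlap between arms in both experiments, and Treml2 is separate only in the antibody experiment.

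Over the 15 isolates, which share arms and admixture, the members varied together as a description. Log2 CPM of Trem2 correlated with that of Inpp5d at Pearson's r 0.989, Abi3 at 0.987, Tyrobp at 0.984, Plcg2 at 0.979, Syk at 0.967 and Bin1 at 0.957. Ms4a6d (0.860), Treml2 (0.715) and Sorl1 (-0.575) were less like it. The 5 genes of the table with the highest r to Trem2 were Sting1 (0.993), Csf1r (0.992), Selplg, Tagap and Slco2b1 (each 0.990), among 18732 genes. By rank of r Inpp5d was at 8, Abi3 at 11, Tyrobp at 27, Plcg2 at 64, Syk at 162 and Bin1 at 275. Many genes outside the members thus followed Trem2 as closely.

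Of a wider list of 52 genes around the TREM2 signalling chain (other TREM receptors, kinases, adaptors, phosphatases, exchange factors, ligands and sheddases), 7 of 44 tested were lower and 0 higher in KO forebrain, and 4 of 41 were lower and 0 higher in anti-IL34 forebrain. In isolates 20 of 52 were lower with deletion and 3 of 52 with the antibody, and 0 were higher in either. The shares of all genes that were lower were 0.615% and 0.525% in forebrain and 5.22% and 0.603% in isolates. The list medians were -0.11 and -0.12 in forebrain and -0.77 and -0.44 on the log2 scale in isolates, against 0, 0, 0.02 and 0.06 over all genes. Siglech, a sialic acid-binding receptor that signals through TYROBP, was lower in all 4 comparisons (-1.61 and -1.64 in forebrain, -1.79 and -1.21 on the log2 scale in isolates; edgeR-adjusted p 1.53e-06, 0.000326, 0.0146 and 0.0491). Pik3cg, a catalytic subunit of phosphoinositide 3-kinase, was also lower in all 4 (-1.02, -1.21, -1.28 and -0.96 on the log2 scale). Vav1, a signalling protein of blood and immune cells, fell in forebrain in both experiments (-1.31 and -0.93). Rasgrp3, an exchange factor for Ras that binds diacylglycerol, fell in isolates in both (-1.37 and -1.16 on the log2 scale).

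Of 62 mouse genes listed as counterparts of other Alzheimer risk genes 61 were in the table. In forebrain 4 of 55 tested were lower with deletion and 2 of 52 with the antibody, and in isolates 12 of 59 and 1 of 58, with 0 higher throughout, where 0.615%, 0.525%, 5.22% and 0.603% of all genes were lower. The list holds Il34 itself, the deleted gene, which is 1 of the 4 lower in KO forebrain by design (-1.50 on the log2 scale). The 1 of 58 is Siglech, whose place as a counterpart of a human risk gene is not established. The list medians were -0.09, -0.07, -0.38 and -0.19 on the log2 scale in that order, against 0, 0, 0.02 and 0.06 over all genes. Besides Siglech, which both lists hold, Cd33, a sialic acid-binding receptor, was lower in forebrain in both experiments (-1.53 and -1.28 on the log2 scale, edgeR-adjusted p 2.97e-06 and 0.000429). For both lists the counts in KO isolates are 0 in the 5 fits with 1 animal left out that called no gene. In anti-IL34 isolates no gene of the table passed without anti-IL34 animal 10 or without anti-gp120 animal 7, so the calls of Siglech, Pik3cg and Rasgrp3 there were lost. In 4 other such fits (anti-gp120 animals 1 and 8, anti-IL34 animals 2 and 24 left out in turn) only 1 to 6 genes passed in all.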

How the data were processed

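RNA from whole forebrain and CD11b isolates was made into libraries with a low-input SMART-Seq kit, per the labels. The authors deposited whole-number read counts per gene. The submitters' processing notes name STAR 2.7.5c, featureCounts 1.6.3, R 4.4.0 and GRCm38, without their roles, and strand use is not given in the sources used here. The deposited table also holds a Length per gene, an other unit in bases, and the deposited sample sheet an animal number, which matched the labels, with sex, for 30 of 30 libraries. Count columns that matched no labelled sample, 6 in number, and the deposited TPM table were not used here.

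Members and lists were chosen with earlier results of these data known. The text names all 10 members, and from each wider list the genes past the threshold in both experiments of a tissue. Counts were tested with edgeR 4.0.16 (R 4.3.3): quasi-likelihood F test, TMM, filterByExpr by group, a sex term, Benjamini-Hochberg adjustment over all genes tested, threshold 0.05. SEs are the log2 fold change over the square root of F. The tissue contrast drew on the 8 control animals, adjusting for experiment and sex, the tissue differences an interaction with sex by tissue. The fits were tested on simulated data. Alternatives were DESeq2 1.42.0, RLE factors, no count filter, no sex term, all 15 libraries of a tissue, and each animal left out.

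Forebrain and isolate libraries of an animal are paired by its number. Deviations of paired libraries from their group means correlated over genes at a median r of 0.110 (0.0359 to 0.173). Chi-square over its degrees of freedom was at least 5.84 in the 42 replicate pairs, so none looked like a repeated library. Each replicate is 1 animal, and total counts of 15.1 to 75.2 M per library leave counting error in the forebrain values of Treml2, Ms4a6d, Abi3, Tyrobp and Trem2, whose lowest libraries held 5, 6, 17, 20 and 24 counts.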

Additional observations from a re-analysis of the deposited data

Results flagged for a closer look

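Among the 60 groups of 4 animals tested (10 members, 6 groups), the highest or lowest animal stood apart from the other 3 in 4, where chance gives about 1 in 20. In Het forebrain Syk was at 6.49 CPM in animal 20, against 5.24 to 5.35 CPM in the others, and Ms4a6d at 0.690 CPM in animal 23, against 0.492 to 0.517 CPM. In anti-IL34 isolates Ms4a6d was at 20.7 CPM in animal 10, against 30.2 to 31.2 CPM. In anti-gp120 forebrain Bin1 was at 177 CPM in animal 15, against 202 to 206 CPM.

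The effect of deletion on Bin1 was called as different between isolates and forebrain, by -1.12 on the log2 scale (edgeR-adjusted p 0.0110). That fit does not pair the libraries of an animal. With the animal as a replicate block it did not pass (edgeR-adjusted p 0.0912), and it depended on single animals as given above.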

How the results depend on the processing

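The direction of Trem2, Tyrobp, Syk, Plcg2, Abi3 and Inpp5d in each of the 4 comparisons of arms held in every alternative run. Counts of members called held within 1.5 times under all alternatives other than leaving out an animal in both forebrain comparisons, KO isolates and the tissue contrast. In anti-IL34 isolates 0 members became 7 with DESeq2, 6 without a count filter, 5 without a sex term and 7 with all 15 libraries. Over the whole table the genes called went from 110 to 2015, 819, 983 and 988 in that order. For the tissue difference of deletion the 1 member became 5 with DESeq2, 2 with RLE factors, 2 without a count filter and 0 with the replicate block. The genes called went from 599 to 3635, 703, 1569 and 0. For that of the antibody 0 became 1 with DESeq2 and 1 without a count filter, while the genes called went from 17 to 1092 and 1352. For deletion minus antibody in isolates 0 became 1 with DESeq2, while the genes called went from 0 to 35. The cause of these moves was not tested.

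With 1 animal left out the members called ran from 2 to 4 in KO forebrain and 0 to 10 in KO isolates. They ran from 1 to 5 in anti-IL34 forebrain and 0 to 8 in anti-IL34 isolates. For the tissue difference of deletion they ran from 0 to 6 (6 without Het animal 1, 3 without Het animal 21), and for that of the antibody from 0 to 1. Over the whole table the genes called ran from 55 to 117, 0 to 5756, 25 to 126 and 0 to 6905 in the 4 comparisons of arms. For the tissue differences they ran from 0 to 5688 (5688 without Het animal 1, 3243 without Het animal 21) and 0 to 5565. Estimates near 0 reached or crossed it: in KO forebrain Treml2 ran from -0.10 to 0.32, Sorl1 from -0.01 to 0.18 and Bin1 from -0.12 to 0 as rounded, and in anti-IL34 forebrain Treml2 from -0.07 to 0.38. Tyrobp ran from -0.15 to 0.51 for the tissue difference of deletion and from -0.76 to 0.07 for deletion minus antibody in forebrain, and Plcg2 from -0.31 to 0.06 for the tissue difference of the antibody. Without KO animal 3, or anti-IL34 animal 11, an arm holds 1 sex.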
